A study of Mus musculus with 12 samples.

Results

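The AP-1 family and immediate early genes were examined in bulk RNA-seq of whole mouse testes at E14.5. Members were the rows of the count table whose symbol was one of 10 names, the Fos subunits Fos, Fosb, Fosl1 and Fosl2, the Jun subunits Jun, Junb and Jund, and Atf3, Egr1 and Ier2. All 10 were found among the 24470 genes of the table. The 12 libraries came from 6 control pools (genotype Nr2f2 f/f) and 6 cKO pools (Wt1 CreER x Nr2f2 f/f), each of 3 testes. Both groups carried the floxed Nr2f2 alleles, and tamoxifen was injected into the pregnant dams 3 and 2 days before collection. CreER was driven by Wt1, a gene of somatic progenitors of the gonad, and the whole testis also holds germ, immune and blood cells. The labels do not say which pools shared a litter, and p-values measure the spread between these pools.

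AP-1 is a dimeric transcription factor made of basic leucine zipper proteins. Jun proteins pair with themselves or with Fos proteins, while Fos proteins need a Jun partner. Fos, Fosb, Egr1, Ier2, Junb and Atf3 are immediate early genes, transcribed within minutes of a growth factor or stress signal without new protein synthesis, and the handling of tissue during dissection and dissociation is a known trigger. Fosl2 and Jund are more slowly regulated and are often present in unstimulated cells.

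Total counts ranged from 7044531 to 59404778 per library. Levels are given as CPM, the counts of a gene relative to the library's size, with sizes scaled by the TMM method of edgeR. Nr2f2, the targeted gene, ran from 162.5 to 186 CPM in control pools and from 50.2 to 118.6 CPM in cKO pools. Xist, the RNA of the inactive X chromosome, exceeded 100 CPM in 4 libraries (control 1, cKO 3, cKO 5 and cKO 6, 304 to 891 CPM), and was between 5.15 and 7.68 CPM in the other 8. The same 4 libraries held 14.6 to 47.2 CPM of Foxl2, a gene of ovarian supporting cells, against 0.23 to 1.30 CPM in the others. The 6 ovarian supporting markers summed to 141.2 to 315 CPM in these 4 and to 66.7 to 92.8 CPM in the other 8, with none at 0 in any pool. The labels call all 12 testis, and 3 of these 4 are cKO, so the log2 fold changes of the members are given with and without them.

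Promoter windows of 7 members (Fos, Fosb, Fosl2, Jun, Junb, Jund and Atf3) were present in the RefSeq table used, on GRCm38.p6, covering 250 bases before to 50 after each start. The stretches below hold the motif letters that were searched for on both strands, in capitals, and are shown because these genes are known to respond to AP-1, cAMP and Egr signals. The first 3 hold TGACG, the core of cAMP response elements, which was in 20.8% of 32851 windows and in 4 of the 7 members. Jun holds TGACATCA, a variant AP-1 element found in 3.62% of windows. Fosl2 and Fosb hold GCGGGGGCG, the sequence bound by Egr zinc fingers, found in 2.91% of windows. In the Fosb stretches the TGACG and GCGGGGGCG matches lie close together and the printed windows overlap.
Fos, chr12:85473812-85473841, + strand: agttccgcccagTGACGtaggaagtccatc
Fosb, chr7:19310088-19310117, - strand: tggagttgcgggTGACGcaagcgcgggggc
Junb, chr8:84978837-84978866, - strand: gcttcctgacagTGACGcgagccgcctcct
Jun, chr4:95052249-95052278, - strand: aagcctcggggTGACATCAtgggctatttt
Fosl2, chr5:32136383-32136412, + strand: ccggctgcgcGCGGGGGCGgaagggcgcgc
Fosb, chr7:19310076-19310105, - strand: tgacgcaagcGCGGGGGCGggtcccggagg
Each sequence is written 5′ to 3′ on the strand of its gene. The full AP-1 element TGACTCA (5.2% of windows), the full cAMP response element TGACGTCA (1.79%) and the CArG box of serum response factor (1.63%) matched none of the 7 windows. Fos held a further TGACG, and Atf3 held it on the opposite strand beside its start.

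Levels per length were compared in control pools, as CPM per kilobase of transcript. For each member this was the protein-coding transcript whose span best matched the interval in the count table. Jund was highest at 77.9 ± 9.93 CPM per kilobase (SD, n = 6), although its transcript covers only 58.0% of the interval in the count table, and over that interval of 2878 bases its level was 45.2. Jun followed at 18.3 ± 1.97, then Ier2 at 12.8 ± 2.74 and Fosl2 at 10.5 ± 1.07, whose spreads overlapped. Egr1 was at 5.54 ± 1.86, Junb at 2.03 ± 0.42, Atf3 at 1.31 ± 0.16 and Fos at 0.50 ± 0.20 CPM per kilobase. Fosb was at 0.073 ± 0.036 and Fosl1 at 0.018 ± 0.016. The 4 most abundant per length were therefore Jund and Fosl2, classed as slow, together with Jun and the immediate early gene Ier2. Fos was the least abundant of the 8 that could be tested.

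Control and cKO testes were compared to ask whether these genes differed with genotype. Only the cKO pools carried Wt1 CreER, so its effect and that of Nr2f2 loss cannot be told apart. Of the 8 members that passed the filter on low counts, 1 was called (12.5%) in the quasi-likelihood fit of edgeR, with p-values adjusted by Benjamini-Hochberg over 15572 genes, where 8.13% of all genes tested were called and 3.28% were called as higher in cKO. The called member was Fosl2. Their median log2 fold change was 0.16, beside 0.003 for all genes tested. In bulk tissue, a change in the number of cells of a type and a change of RNA per cell cannot be told apart.

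**Figure D1:**
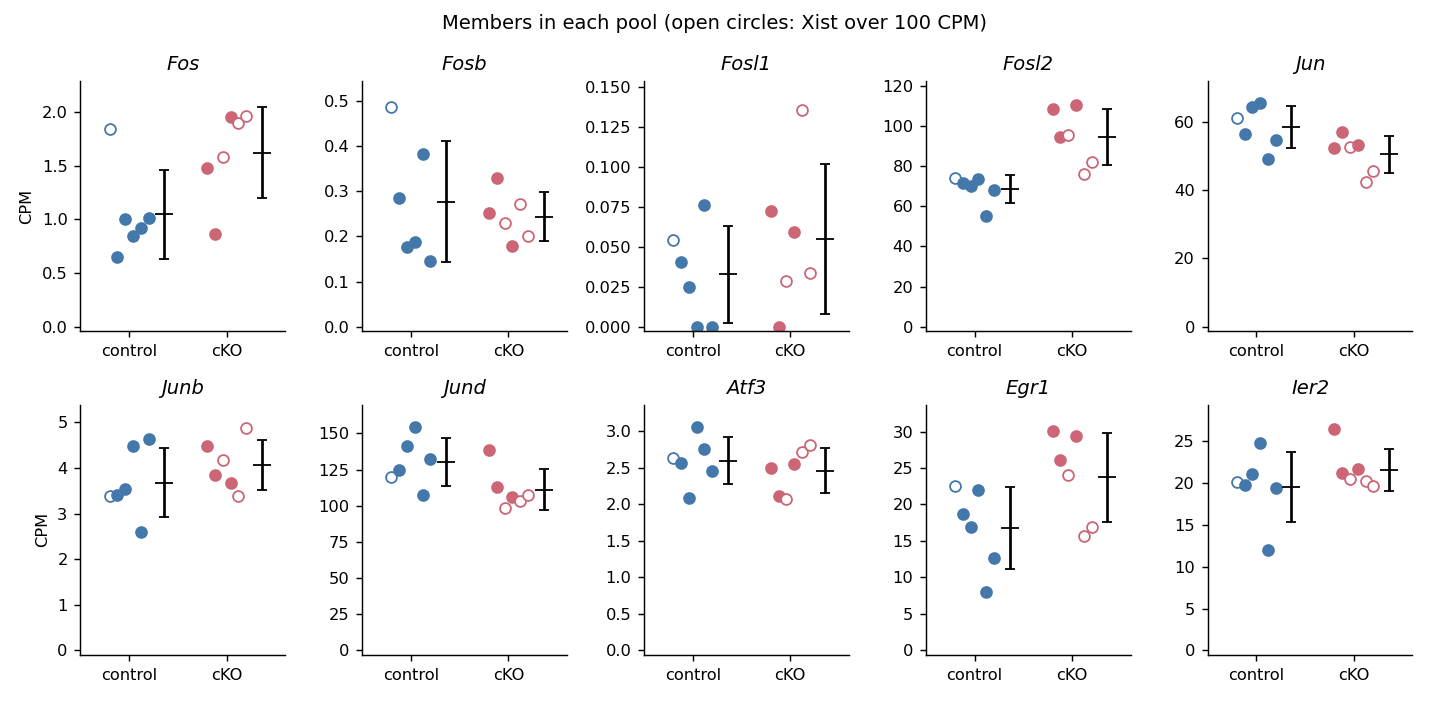
CPM of each member (y axis) in the 6 control and 6 cKO pools (x axis), 1 point per pool, with the mean and SD as bars, and open circles for the 4 libraries with Xist over 100 CPM. Fosl2 is the member whose groups do not overlap (55.3 to 74.1 CPM in control, 76.1 to 110.7 CPM in cKO).

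Fosl2 (chr5:32136472-32157840 on mm10, + strand) encodes FRA2, a Fos subunit that lacks the strong activation domain of c-FOS. In control pools 1 to 6 it was at 74.1, 71.8, 70.3, 73.8, 55.3 and 68.0 CPM, and in cKO pools 1 to 6 at 108.6, 94.6, 95.5, 110.7, 76.1 and 82.3 CPM. All 6 cKO pools lay above all 6 control pools, a separation seen for 5.52% of genes tested in either direction. The log2 fold change was 0.46 ± 0.10 (SE; 95% interval 0.25 to 0.67; edgeR adjusted p = 0.0112), a 1.37-fold difference. In the 8 pools with Xist under 100 CPM (5 control, 3 cKO) it was 0.63 ± 0.10 (edgeR adjusted p = 0.00418), where 7.08% of genes were called. Each of the 12 leave-one-out fits called it, with log2 fold changes from 0.41 to 0.51. Markers of several cell types differed between the same groups. As lower in cKO, 7 of 8 contractile genes, 6 of 7 fetal Leydig genes and 3 of 9 interstitial progenitor genes were called. As higher in cKO, 3 of 8 macrophage and immune genes, 2 of 6 mesonephric epithelium genes and 1 interstitial progenitor gene were called. Tek, 1 of 8 endothelial genes, and Hbb-bs, 1 of 8 red cell genes, were called as lower over 12 pools and missed the threshold in the 8 pools with low Xist. Of 8 meiosis genes 0 were called, with all 8 positive over 12 pools (median log2 fold change 0.95, and 0.07 in those 8 pools). With only the 8 pools with low Xist, 5 contractile, 6 fetal Leydig and 3 interstitial progenitor genes were called as lower, 2 macrophage and immune genes and 1 interstitial progenitor gene as higher, and of the mesonephric epithelium genes 0 as higher and 1 as lower (Emx2, log2 fold change -0.33, edgeR adjusted p = 0.0454). Of the 6 ovarian supporting markers, Wnt4 was called as lower over 12 pools (-0.77), and 4 were called in those 8 pools. Foxl2 (1.45, edgeR adjusted p = 0.00958), Fst (0.62, 0.0216) and Bmp2 (0.67, 0.0379) were higher there and Wnt4 lower (-0.84, 0.00686), so leaving out the 4 libraries did not leave these markers level between genotypes. Of the 4 mesonephric mesenchyme markers, Osr1 was called as lower in both fits (-0.81 and -0.76), and its groups did not overlap. The contractile markers summed to 588.1 to 718.3 CPM in control and 353.1 to 539.7 CPM in cKO pools, and the fetal Leydig markers to 1771 to 3164 and 881.4 to 1905 CPM. The interstitial progenitor markers summed to 1359 to 1669 CPM in control and 870.6 to 1440 CPM in cKO pools, the macrophage and immune markers to 47.2 to 66.3 and 65.9 to 82.3 CPM, and the mesonephric epithelium markers to 46.7 to 88.2 and 45.7 to 72.9 CPM. Apart from 1 mesonephric epithelium marker, none of these was at 0 in any pool. The part of these cell types in the Fosl2 difference was not tested.

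Fos (chr12:85473901-85477269 on mm10, + strand), the founding member of the family, was at 1.84, 0.65, 1.01, 0.85, 0.92 and 1.01 CPM in control pools 1 to 6, which rest on 7 to 68 reads. In cKO pools 1 to 6 it was at 1.48, 0.86, 1.58, 1.96, 1.90 and 1.96 CPM. The groups overlapped, since control 1 lay among the cKO values and cKO 2 among the control values. The log2 fold change was 0.61 ± 0.26 (95% interval 0.05 to 1.17) and missed the threshold (edgeR adjusted p = 0.163). Without control 1, which has high Xist, it was 0.90 ± 0.23 and passed (edgeR adjusted p = 0.0162), in a fit that called 3106 genes (19.9%) where all 12 libraries gave 1266. In the 8 pools with low Xist it was 0.77 and missed the threshold (edgeR adjusted p = 0.098).

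Fosb and Fosl1, the other Fos subunits, were too low to test. Fosb had 42 reads over the 6 control pools (0.29 CPM, 95% exact Poisson interval 0.21 to 0.40) and 40 reads over the 6 cKO pools (0.22 CPM, 0.16 to 0.31). The intervals overlap, and they cover counting error only. Fosl1 had 5 reads in control and 8 in cKO pools, with no read in control 4, control 6 and cKO 2. A count of 0 allows up to 0.14, 0.43 and 0.20 CPM in those libraries. In a fit with no filter on low counts the log2 fold change was -0.31 ± 0.33 for Fosb (95% interval -1.02 to 0.41; edgeR adjusted p = 0.621) and 0.35 ± 0.66 for Fosl1 (95% interval -1.05 to 1.75; edgeR adjusted p = 0.837).

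The Jun subunits did not pass the test. Jun, the main partner of Fos proteins, was at 61.0, 56.3, 64.2, 65.4, 49.1 and 54.5 CPM in control pools 1 to 6 and at 52.2, 56.9, 52.7, 53.1, 42.3 and 45.4 CPM in cKO pools 1 to 6. The groups overlapped, with 2 cKO pools below all controls, and the log2 fold change was -0.21 ± 0.09 (edgeR adjusted p = 0.152). Jund, a subunit linked to slower growth, ran from 107.5 to 154.4 CPM in control and from 98.6 to 138.6 CPM in cKO pools. Its log2 fold change was -0.23 ± 0.10 (edgeR adjusted p = 0.17), with 4 cKO pools below all controls and cKO 1 among the high controls. In the 8 pools with low Xist the values were -0.10 for Jun and -0.14 for Jund. With an offset for GC content, added after the data were seen, both were called as lower in cKO (-0.24 and -0.28, edgeR adjusted p = 0.0325 and 0.0446), in a fit that called 1637 genes (10.5%). Junb, which often opposes Jun, ran from 2.60 to 4.63 CPM in control and from 3.39 to 4.87 CPM in cKO pools, with a log2 fold change of 0.17 ± 0.15 (95% interval -0.15 to 0.49) and 0.12 in those 8 pools.

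Atf3, a stress-induced partner of Jun, ran from 2.09 to 3.06 CPM in control and from 2.07 to 2.81 CPM in cKO pools, and the groups overlapped almost fully. Its log2 fold change was -0.08 ± 0.14 (95% interval -0.37 to 0.22; edgeR adjusted p = 0.939). Ier2, a nuclear protein induced by growth factors, ran from 12.0 to 24.8 CPM in control and from 19.6 to 26.5 CPM in cKO pools, with a log2 fold change of 0.14 ± 0.14 (95% interval -0.15 to 0.43). Over the 8 pools with low Xist the values were -0.09 for Atf3 and 0.25 for Ier2.

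Egr1 is a zinc finger transcription factor induced with Fos by serum and stress. It was at 22.5, 18.7, 16.9, 22.0, 7.96 and 12.7 CPM in control pools 1 to 6 and at 30.1, 26.1, 24.0, 29.3, 15.7 and 17.0 CPM in cKO pools 1 to 6. Control 5 and control 6 were lowest in control, and cKO 5 and cKO 6 lowest in cKO, and the groups overlapped. The log2 fold change of 0.48 ± 0.23 (95% interval -0.004 to 0.97) missed the threshold (edgeR adjusted p = 0.201). In the 8 pools with low Xist the groups did not overlap, as for 28.3% of all genes in those pools, and the log2 fold change was 0.84 ± 0.23, with an edgeR adjusted p of 0.0525.

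**Figure D2:**
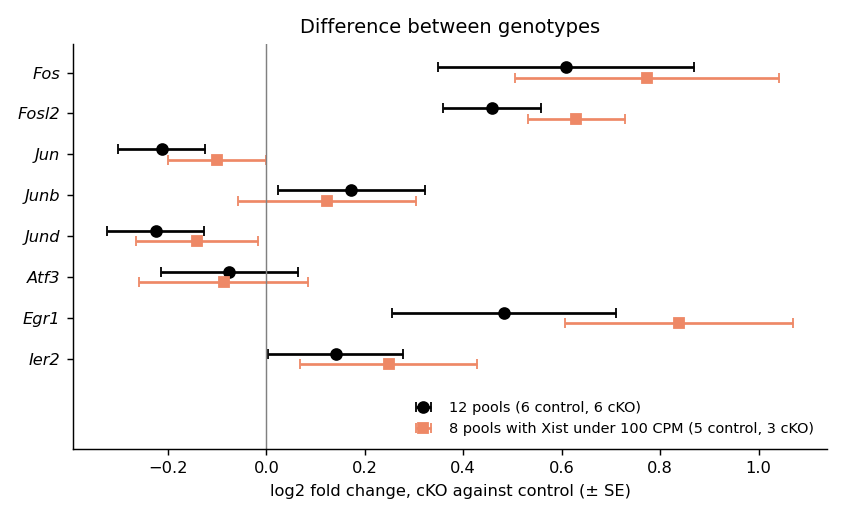
Log2 fold change of cKO against control (x axis) with its SE for the 8 tested members, over 12 pools (circles) and over the 8 pools with Xist under 100 CPM (squares). Fosl2 was 0.46 and 0.63, and was the member called in both.

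The spread between pools of 1 genotype was measured because immediate early genes can respond to dissection. It is given as the SD of log2 CPM with the genotype mean removed, beside the SD that counting alone would give. Egr1 varied most, with an SD of 0.49 against 0.087 from counting, above 90.6% of genes tested. Fos followed at 0.45 against 0.32, so much of its spread was of the size counting gives. Ier2 was at 0.27 against 0.078 and Junb at 0.25 against 0.18. The SD over the 8 pools with low Xist was 0.47 for Egr1, 0.38 for Fos and 0.33 for Ier2. Fosl2 (0.19), Jund (0.18), Atf3 (0.18) and Jun (0.16) lay below the median of 0.21 over all genes tested. The median over the 8 members was 0.22, beside 0.22 over 44 other immediate early genes and 0.19 over 18 heat shock genes. Single heat shock genes varied more, with Hspa1a at 0.51 (above 91.6% of genes tested) and Hspa1b at 0.44 (above 87.3%).

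**Figure D3:**
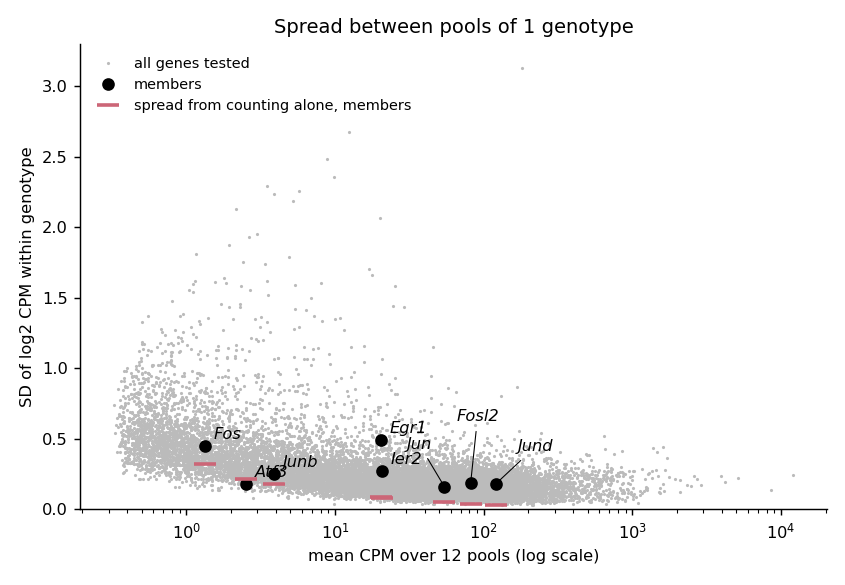
SD of log2 CPM within genotype (y axis) against mean CPM over 12 pools (x axis, log scale) for all genes tested (grey) and the 8 members (black), with the spread from counting alone as red bars. Egr1 stands at 0.49, high for its level of 20.3 CPM, while Fosl2, Jun and Jund lie below the median.

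Control 5 was the pool that stood apart most in these genes. It was below the control mean for 7 of 8 members and lowest of the controls for 6, with Egr1 0.99 and Ier2 0.67 below the control mean on the log2 scale. Fosl2 in control 5, at 55.3 CPM, lay outside the other controls (68.0 to 74.1 CPM). The same library held less of GC-rich genes: between the 10% of genes with the highest and the 10% with the lowest GC content, its deviation differed by -0.66 on the log2 scale, against -0.22 to 0.25 in the other 11. All 8 members lie above the median GC content of tested genes (50.2%), and after the GC trend of each library was removed control 5 lay at -0.72 from the control mean for Egr1, at -0.31 for Ier2, at -0.20 for Fosl2 and at 0.10 for Jund. Control 5 also had the lowest summed Sertoli markers of the controls (1091 CPM, against 1349 to 1627) and the highest summed germ cell markers (2055 CPM, against 1182 to 1729). Among cKO pools, cKO 5 was below the cKO mean for 6 of 8 members and lowest for 4. Its GC difference was -0.01, and its Sertoli markers summed to 1124 CPM, in a range of 1063 to 1623 CPM over cKO pools. The part of cell composition in the low values of control 5 and cKO 5 was not tested. Without control 5 the SD of Egr1 was 0.37 and that of Ier2 was 0.15, and the log2 fold changes were 0.35 ± 0.18 for Egr1 and 0.04 ± 0.09 for Ier2 (edgeR adjusted p = 0.281 and 0.831).

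Covariation over the 12 pools was tested as Pearson's r and Spearman's rho of deviations from the genotype mean, with 100000 permutations of pools within genotype. Fos was set against each of the other 9 members, and 0 of 9 relations passed the threshold (smallest permutation p adjusted over the 9 = 0.965 by Pearson's r and 0.876 by Spearman's rho; 0 with an unadjusted p under 0.05 by either measure). For Fosb and Fosl1, with at most 18 and 2 reads per library, these relations carry little information. With Egr1 its r was -0.03 (rho = -0.06; permutation p = 0.93 and 0.873), and -0.10 in the 8 pools with low Xist. It was 0.14 without control 2 and cKO 6, the pools farthest from the median in level of Fos, and -0.45 without control 1 and cKO 2, the pools farthest in deviation (added after the data were seen), so its sign depended on the pools left out. With Jun its r was -0.23, and -0.20 without those 2 pools.

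All 28 pairs of the 8 tested members were examined after these values were seen, and p-values were adjusted over the 28. Fosl2 and Egr1 had r = 0.92 (rho = 0.92; permutation p adjusted = 0.00056 and 0.0014). The value was 0.95 without the 2 pools farthest from the median in level of Fosl2, 0.84 without control 5 and cKO 5, the 2 farthest in deviation, 0.89 without control 5, 0.91 in the 8 pools with low Xist and 0.85 after the GC trend of each library was removed (permutation p adjusted = 0.0084). In total 7 pairs passed by Pearson's r, among Fosl2, Jun, Jund, Egr1 and Ier2, and 3 by Spearman's rho. How often pairs of other genes pass was not measured, so these counts are not read as particular to the members. The part of cell composition in this covariation was not tested. Without control 5, 1 pair passed, and 1 passed after the GC trend was removed, Fosl2 with Egr1 in both. The r of Egr1 with Ier2 was 0.84 over 12 pools (permutation p adjusted = 0.00812), and 0.64 without control 5 (permutation p adjusted = 0.206).

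**Figure D4:**
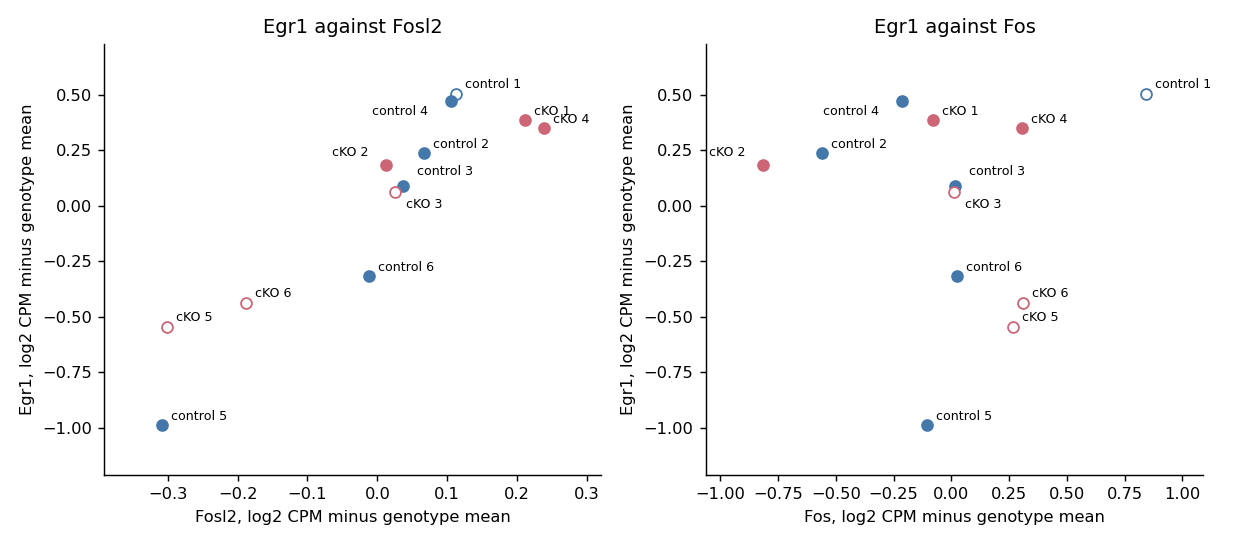
Egr1 against Fosl2 (left) and against Fos (right), each as log2 CPM minus the genotype mean, 1 point per pool, in blue for control, red for cKO and open for the 4 libraries with Xist over 100 CPM. The points line up for Fosl2 (r = 0.92) and scatter for Fos (r = -0.03).

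The 8 genes whose deviations over the 12 pools were most like those of Fos had r from 0.88 to 0.91, as a description. They were Tmc4, Gata6, Nos1ap, Prickle3, 4933430I17Rik, Atad2b, Pex10 and Krt8. None of these is a member of the immediate early lists used here.

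Among the other immediate early genes, the few that were called went in both directions, and values are given on the log2 scale. Of 46 listed, 44 were tested, 2 were called as higher and 4 as lower in cKO (13.6% called, against 8.13% of all genes), and the median log2 fold change was 0.07. Nr4a3, an orphan nuclear receptor, rose by 0.88 ± 0.22 (edgeR adjusted p = 0.0233) and was called in 7 of the 12 leave-one-out fits. It missed the threshold without control 2, control 3, cKO 1, cKO 3 or cKO 4 (log2 fold changes 0.82 to 0.85, adjusted p up to 0.0588). Dusp5, a phosphatase of ERK, was at 3.37 to 6.22 CPM in control and 6.28 to 10.3 CPM in cKO pools, so the groups did not overlap, and rose by 0.64 ± 0.16 (edgeR adjusted p = 0.0214). It missed the threshold in the 8 pools with low Xist (0.42, edgeR adjusted p = 0.128) and without cKO 6 (0.55, edgeR adjusted p = 0.0541). Cebpb, a leucine zipper factor of inflammation, fell by 0.72 ± 0.17 (edgeR adjusted p = 0.0175), with all 6 cKO pools (3.94 to 9.02 CPM) below all controls (9.52 to 14.0 CPM), and missed the threshold in the 8 pools (-0.59, edgeR adjusted p = 0.0678). Socs3, an inhibitor of cytokine signalling, fell by 0.38 ± 0.09 (edgeR adjusted p = 0.016) and its groups did not overlap. Ier5l fell by 0.47 ± 0.10 and Btg1, an antiproliferative gene, by 0.23 ± 0.06 (edgeR adjusted p = 0.0113 and 0.0346), and of the 12 leave-one-out fits Btg1 was called in those without control 1, control 5, control 6 or cKO 3. Btg1 also missed the threshold in the 8 pools (-0.23, edgeR adjusted p = 0.112). Without the 4 libraries with high Xist, 4 of the list were called, Nr4a3, Ier5l, Socs3 and Gem (edgeR adjusted p = 0.0186 for Gem). Among genes of this list with a mean of at least 1 CPM, the largest spread between pools of 1 genotype belonged to Egr3 (SD 0.45, against 0.34 from counting), Egr4 (0.43, against 0.080), Dusp2 (0.40, against 0.29), Nr4a3 (0.37, against 0.34), Maff (0.37, against 0.14) and Cebpd (0.37, against 0.17). For Egr3, Dusp2 and Nr4a3 much of the spread was of the size counting gives. Arc, below that limit at 0.74 CPM in control and 0.83 CPM in cKO pools, had an SD of 0.45.

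Partners, inputs and targets were counted from lists in the same way. Of 13 tested dimer partners and related leucine zipper genes, 0 were called by edgeR or limma-voom (8.01% of all genes by limma-voom), and 1 of 14 by DESeq2 (11.6% of all genes with an adjusted p). In edgeR 3 of the 13 had an unadjusted p under 0.05, near the 25.2% of all genes. Mafg had the largest positive log2 fold change at 0.41 ± 0.12 (edgeR adjusted p = 0.0566), and in the 8 pools with low Xist it was called at 0.51 (edgeR adjusted p = 0.0327). Of 24 tested inputs, mostly MAP kinases and serum response factor with its cofactors, with other regulators such as Creb1 and Fbxw7, 1 was called (4.17%, against 8.13% of all genes). Fbxw7, which targets JUN for degradation, was at 73.2 to 79.8 CPM in control and 84.0 to 104.1 CPM in cKO pools and rose by 0.28 ± 0.06 (edgeR adjusted p = 0.0164), with 0.20 in the 8 pools with low Xist (adjusted p = 0.0875). Of 14 tested genes with textbook AP-1 sites, 4 were called (28.6%, against the same 8.13%). Cdkn1a, which encodes the cell cycle inhibitor p21 and is also a p53 target, rose by 1.56 ± 0.18 from 6.97 to 8.93 CPM in control to 14.6 to 34.7 CPM in cKO pools (edgeR adjusted p = 0.000174). Ccnd1, cyclin D1, rose by 1.02 ± 0.12 (edgeR adjusted p = 0.000177) and Ezr, a linker of membrane and actin, by 0.35 ± 0.08 (edgeR adjusted p = 0.0172), while Plau, urokinase, fell by 0.65 ± 0.12 (edgeR adjusted p = 0.00419). Ezr missed the threshold in the 8 pools with low Xist (0.32, edgeR adjusted p = 0.0756), while Cdkn1a, Ccnd1, Plau and also Cd44 (0.74, edgeR adjusted p = 0.0266) were called there. Both directions thus occurred among AP-1 targets, and the matrix metalloproteinase genes Mmp3, Mmp10 and Mmp13 were among those that did not pass the filter on low counts.

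Heat shock genes also answer handling. Of 18 tested, 2 were called (11.1%), near the 8.13% of all genes. Hspb8 fell by 0.64 ± 0.08 (edgeR adjusted p = 0.000383) and Hsph1 rose by 0.29 ± 0.08 (edgeR adjusted p = 0.0475), with a median of -0.0007 over the list. Leave-one-out fits called Hsph1 only without control 1, control 2, control 3 or cKO 2, and it missed the threshold in the 8 pools with low Xist, where Hspb8 was called (Hsph1 0.29, edgeR adjusted p = 0.137).

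**Figure D5:**
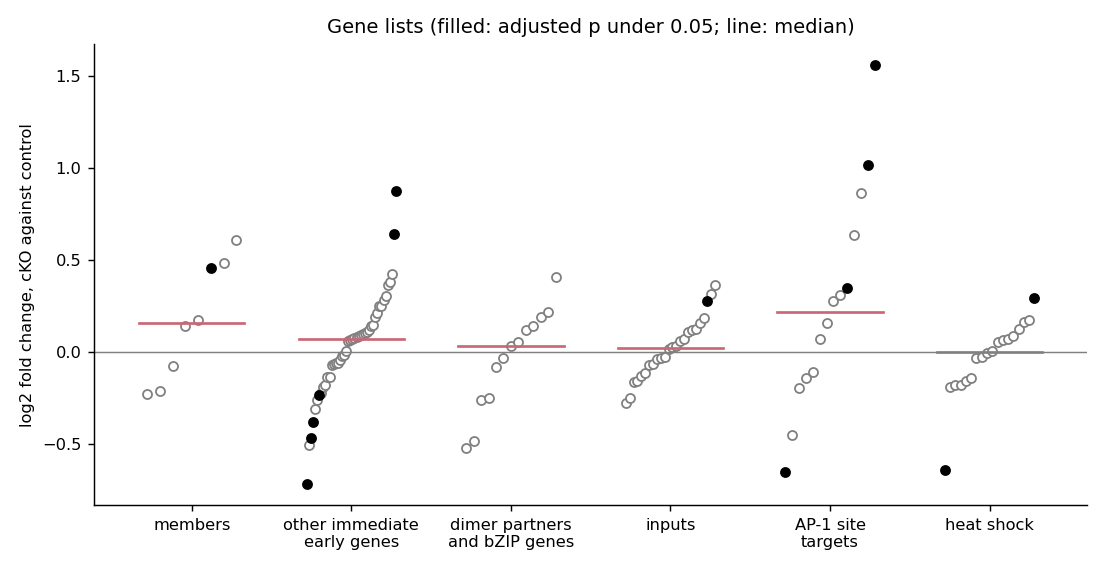
Log2 fold change of cKO against control (y axis) for the tested genes of the 6 lists (x axis), filled where the adjusted p is under 0.05, with the median of each list as a line. The medians lie between -0.0007 for heat shock genes and 0.22 for AP-1 targets.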

How the data were processed

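RNA was measured in 12 libraries of polyadenylated RNA. The authors trimmed reads with Trim Galore 0.6.7, aligned them to mm10 with STAR 2.5, counted read pairs by strand on RefSeq Curated gene models with featureCounts (Subread 1.5.0-p1) and deposited raw counts per gene. Groups were taken from the genotype labels. Counts were scaled by TMM and filtered by filterByExpr (minimum count 10, minimum total 15), and genotypes were compared by glmQLFTest of edgeR 4.0.16 in R 4.3.3, two-sided, with its Poisson bound on p-values and Benjamini-Hochberg adjustment and a threshold of 0.05. SE was the log2 fold change divided by the square root of F. Log2 CPM used a prior count of 2. Covariation used numpy 2.4.6. Transcript lengths and GC content came from GENCODE M21, with GC content for 97.8% of tested genes. The members and gene lists were chosen with earlier results of these data known. Genes named were all members, up to 6 called genes per list, the 6 other immediate early genes with the largest spread and the 8 genes most like Fos, both limited to those averaging 1 CPM or more. Mafg, Arc, Gem, Cd44, Hspa1a, Hspa1b and the cell type markers were named after their values were seen. Fits were tested on simulated data. Alternatives were other scalings and filters, DESeq2 1.42.0, limma-voom 3.58.1, a replicate block, 1 surrogate variable (sva 3.50.0), leaving out each library, leaving out the 4 libraries with high Xist and, added after seeing the data, a GC offset of 20 bins, the 28 pairs of members and correlations without the 2 farthest pools by deviation.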

Additional observations from a re-analysis of the deposited data

Results flagged for a closer look

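In 20 sets of 6 pools (10 members in each genotype), 4 held a pool far from the rest. Independent values would give about 1 set in 20. These sets share the same pools, and the share over all genes was not measured. Fos in control 1 was at 1.84 CPM, above the other controls (0.65 to 1.01 CPM). Fosl2 in control 5 was at 55.3 CPM, below the other controls (68.0 to 74.1 CPM). Jund in cKO 1 was at 138.6 CPM, against 98.6 to 113.3 CPM in the other cKO pools. Ier2 in cKO 1 was at 26.5 CPM, against 19.6 to 21.7 CPM.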

How the results depend on the processing

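Fosl2 was called in all 11 other settings, with log2 fold changes from 0.44 to 0.63. With an added GC offset 1637 genes and 3 members were called, Fosl2, Jun (-0.24, edgeR adjusted p = 0.0325) and Jund (-0.28, 0.0446). The labels do not say whether replicate numbers pair the pools. Over all genes tested, r between same-numbered pools ran from -0.33 to 0.24, which does not settle it. With the replicate block 931 genes, 2 members (Fosl2, and Egr1 at 0.52 with edgeR adjusted p = 0.0119), 2 other immediate early genes and 1 heat shock gene were called. Ier5l, Socs3, Btg1 and Dusp5 missed the threshold there (edgeR adjusted p from 0.0529 to 0.0603). DESeq2 called 1919 genes. Scaling by library totals alone split the 1240 calls into 640 lower and 600 higher, against 756 and 510. Heat shock calls fell to 1 with no filter, without the 4 libraries with high Xist and with 1 surrogate variable. Leaving out 1 library gave 816 to 3106 genes, 1 to 2 members, 4 to 9 other immediate early genes and 1 to 4 heat shock genes. The median spread of the members was then 0.17 to 0.23, and 0.24 without the 4 libraries with high Xist, and 0 members passed in covariation with Fos in any of the settings tried for it. Depth limits Fosb, Fosl1 and, in the shallowest libraries, Fos.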
